A study of Rattus norvegicus with 6 samples.

Results

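De novo lipogenesis, the making of fatty acids from acetyl units, was described in the liver of rat pups through 10 genes: Slc13a5, Slc25a1, Acly, Acss2, Acaca, Fasn, Me1, Thrsp, Srebf1 and Mlxipl. They were chosen by gene symbol, with earlier results of these data known, and are 10 of 10372 genes tested. The array holds 16 probe sets for them, and each gene's probe set was selected on its mean signal over all 6 arrays, the brightest one giving the value. Livers came from Sprague-Dawley offspring at 3 weeks of age, the time of weaning, 3 from dams fed a high fat diet and 3 from control dams fed standard chow. Each liver was hybridised to 1 Affymetrix expression array, where a probe set is a group of short probes near the 3' end of a transcript, and the number of arrays limits the precision. The labels name no litters, sexes or diet compositions and call every array biological replicate 1, so pups may share a dam and p-values cover only the spread among these 6 animals.

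In the liver, citrate leaves the mitochondrion through the carrier encoded by Slc25a1 or enters the cell from blood through the sodium-coupled transporter encoded by Slc13a5. ATP citrate lyase, Acly, splits it into acetyl-CoA and oxaloacetate, acetyl-CoA carboxylase 1, Acaca, makes malonyl-CoA, and fatty acid synthase, Fasn, builds palmitate with NADPH, part of which comes from malic enzyme, Me1. The transcription factor SREBP-1, encoded by Srebf1, answers to insulin, and ChREBP, encoded by Mlxipl, to carbohydrate. In the rat this pathway is known to be low while pups suckle fat-rich milk and to become active once they wean onto carbohydrate-rich food.

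The members did not share a direction. Slc13a5, Slc25a1, Acss2 and Fasn lay lower in all 3 high fat pups than in all 3 controls, while Me1 and Thrsp lay higher in all 3. Acly, Acaca, Srebf1 and Mlxipl overlapped between the diets. In all, 5 members had a lower mean in high fat pups and 5 a higher one. Their median log2 change was -0.059, beside -0.022 over all genes tested. No member passed an adjusted p under 0.05 in limma, where 0.0386% of all genes did. A looser threshold took genes that differed at least 1.5-fold with an unadjusted p below 0.05. It held 5 members, 3 lower (Slc13a5, Fasn and Acss2) and 2 higher (Me1 and Thrsp), where 6.69% of all genes passed, 3.36% lower and 3.34% higher. The groups did not overlap in 6 members, 4 with high fat pups below and 2 with high fat pups above, against 20.8% of all genes, 11.6% below and 9.26% above. Since the members were listed with these results known, nothing is read from those shares. Both counts include Slc13a5, which was kept for testing through its controls alone. All its high fat values lay under 5.83, the limit on a gene's mean below which genes were left out as dim.

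**Figure D1:**
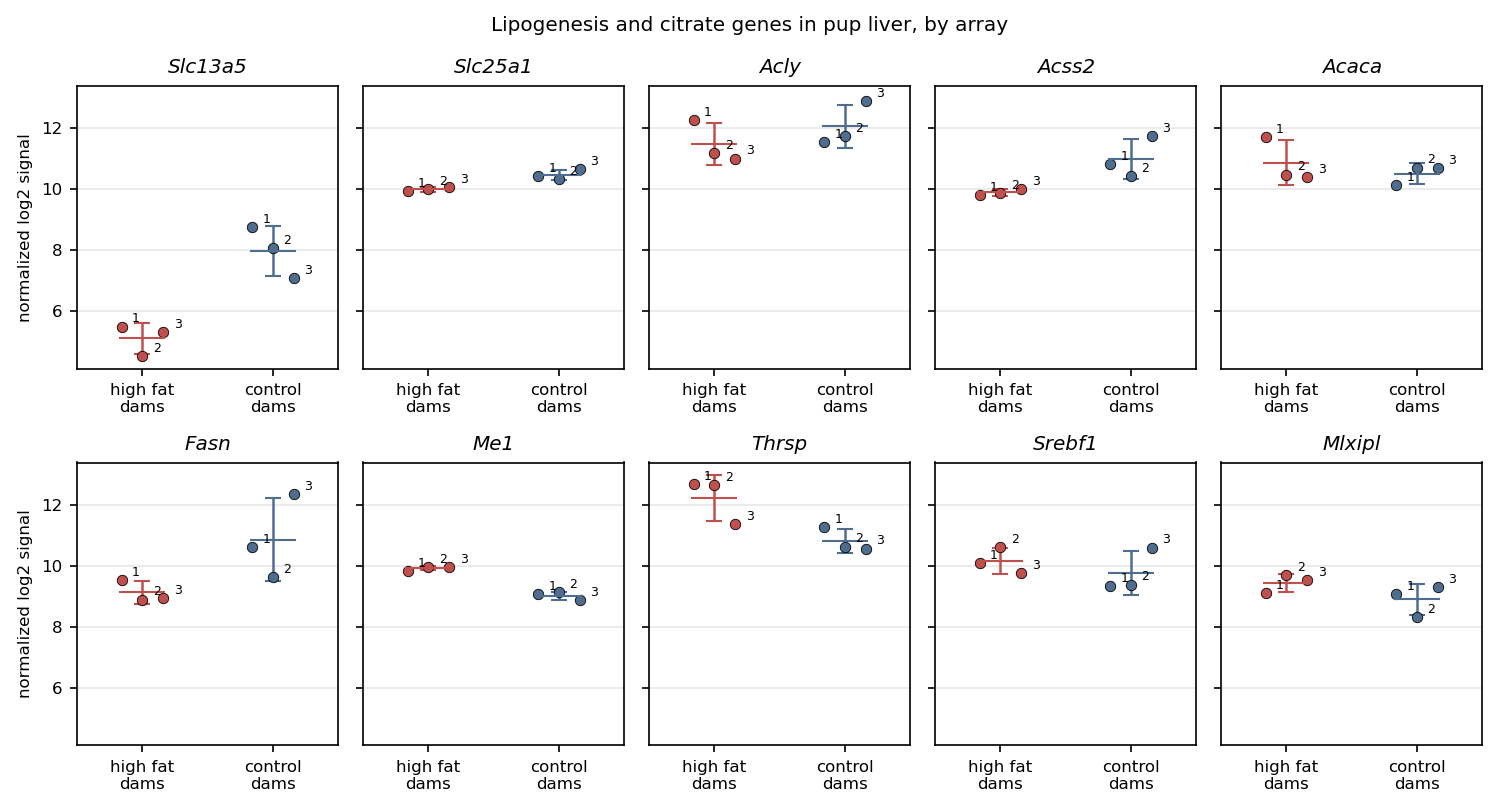
Normalized log2 signal (vertical axis) of each of the 10 genes on each array, with high fat pups in red on the left and controls in blue on the right of every panel. Numbers are replicates, and the bar and whiskers are the mean and SD of 3 arrays. Slc13a5, Slc25a1, Acss2, Fasn, Me1 and Thrsp are separated by diet, and the other 4 genes overlap.

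The stretches just upstream of the start sites are shown for 4 of the genes separated by diet, 2 lower and 2 higher in high fat pups, because factors known to act on this pathway bind such stretches. They are 250 bases ending at the base before the start, 5' to 3' on the strand of the gene, from RefSeq with build GRCr8, where 8 of the 10 members matched, all but Fasn and Acaca. Capitals mark CCAAT, the letters bound by NF-Y, and GGGCGG, those bound by Sp1, on either strand. The Slc13a5 stretch is chr10:57388849-57389098 on the minus strand, Acss2 chr3:164464453-164464702 on the plus strand, Me1 chr8:96540245-96540494 on the minus strand and Thrsp chr1:161138965-161139214 on the minus strand.
Slc13a5: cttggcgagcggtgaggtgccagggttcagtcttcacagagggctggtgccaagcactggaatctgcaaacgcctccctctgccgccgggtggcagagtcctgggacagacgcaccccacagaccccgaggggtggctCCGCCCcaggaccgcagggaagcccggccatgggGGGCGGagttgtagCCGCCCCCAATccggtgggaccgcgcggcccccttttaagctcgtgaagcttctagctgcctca
Acss2: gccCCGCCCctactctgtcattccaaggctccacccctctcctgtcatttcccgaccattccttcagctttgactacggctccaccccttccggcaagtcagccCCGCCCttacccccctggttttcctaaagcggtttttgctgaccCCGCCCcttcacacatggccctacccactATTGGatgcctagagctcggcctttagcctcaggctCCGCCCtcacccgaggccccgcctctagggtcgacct
Me1: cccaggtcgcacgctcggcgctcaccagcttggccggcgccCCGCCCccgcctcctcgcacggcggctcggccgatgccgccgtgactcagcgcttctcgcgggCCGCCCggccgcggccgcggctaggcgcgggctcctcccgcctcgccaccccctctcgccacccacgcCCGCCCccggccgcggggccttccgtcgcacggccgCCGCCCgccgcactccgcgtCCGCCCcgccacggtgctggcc
Thrsp: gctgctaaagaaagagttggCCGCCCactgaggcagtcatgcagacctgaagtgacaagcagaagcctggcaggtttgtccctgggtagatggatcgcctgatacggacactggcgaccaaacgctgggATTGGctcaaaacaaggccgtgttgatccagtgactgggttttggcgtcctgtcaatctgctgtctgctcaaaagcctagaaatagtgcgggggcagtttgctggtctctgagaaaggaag
On either strand, CCAAT stood in 7 of the 8 members with an entry, all but Me1, and in 34% of 33465 rat promoters of the same length. GGGCGG stood in 7 of the 8, all but Mlxipl, and in 30.5% of those promoters. Me1 held 5 copies of GGGCGG, Acss2 4, Slc13a5 3 and Thrsp 1. In Slc13a5 a GGGCGG match on the minus strand, at -64 to -59 from the start, runs directly into CCAAT at -58 to -54, so their capitals join; no matches overlapped. Neither TCACNCCAC, a form of the sterol regulatory element, nor CACGTG, the E-box, was found in these windows of any of the 8 members, against 0.974% and 5.59% of all promoters.

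Slc13a5, which brings citrate in from blood, was dim in high fat pups and brighter in controls. Its normalized log2 signal was 5.51, 4.55 and 5.33 in high fat pups, against 8.76, 8.08 and 7.10 in controls. The brightest high fat array lay 1.598 log2 units under the dimmest control. The mean was 5.13 ± 0.51 in high fat pups and 7.98 ± 0.83 in controls (SD, n = 3 each), a log2 change of -2.85 (SE 0.44, limma adjusted p = 0.135). All high fat values lay below 5.83, the limit on a gene's mean under which genes were left out as dim, so the gene was kept through its controls alone. With no detection call for the high fat signals, the size of the difference is uncertain and no fold is given. The log2 change stayed between -3.29 and -2.46 with any 1 array left out. As this is bulk tissue, fewer cells of a type and less RNA per cell cannot be told apart.

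Slc25a1, the mitochondrial citrate carrier, was at 9.93, 9.999 and 10.08 in high fat pups, against 10.43, 10.32 and 10.66 in controls. The groups did not overlap, but the gap was small, with a log2 change of -0.47 (SE 0.14, limma adjusted p = 0.250), or 1.39-fold lower. Relative to the control mean, the log2 difference Slc13a5 minus Slc25a1 was -1.93, -2.95 and -2.26 in high fat pups, against 0.81, 0.25 and -1.06 in controls. The mean difference was -2.38, of uncertain size as well, since it rests on the dim Slc13a5 signals of the high fat pups. This pair and the 3 gene pairs below were chosen after their values were seen, so their differences are a description with no test.

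Other carriers of citrate and dicarboxylates overlapped between the diets. All 6 listed were tested, and 3 were higher and 3 lower. Their median change was -0.047 log2 units, and none was past the looser threshold. The dicarboxylate carrier Slc25a10 was at -0.43 (SE 0.18, limma adjusted p = 0.346) and the sulfate transporter Slc13a4 at 0.51 (SE 0.30, adjusted p = 0.490). Slc13a4 was at 0.81 when high fat replicate 2 was left out, 0.28 when replicate 3 of that diet was, and -0.084 with high fat pups 1 and 3 both left out. Genes of mitochondrial citrate and pyruvate steps, listed with their cytosolic counterparts, went both ways. Of 13 listed, 11 were tested, 6 higher and 5 lower, with a median of 0.0034 and none past the looser threshold. Mdh1, the cytosolic malate dehydrogenase of that list, was at 13.66, 13.62 and 13.46 in high fat pups, against 13.90, 14.02 and 14.06 in controls (log2 change -0.41, SE 0.13, adjusted p = 0.258). Mpc1, a subunit of the mitochondrial pyruvate carrier, was at -0.25 (SE 0.13, adjusted p = 0.432).

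Acss2 makes acetyl-CoA from acetate in the cytosol and nucleus. It was at 9.80, 9.88 and 10.01 in high fat pups, against 10.81, 10.44 and 11.72 in controls. High fat pups lay close together, with an SD of 0.11 against 0.66 in controls, and the groups did not overlap. Its change was -1.09 log2 units (SE 0.32, limma adjusted p = 0.245), or 2.13-fold lower, and -0.73 without control replicate 3, the highest array. Of the 5 other genes listed for acetate handling, 4 were tested, and 3 were higher and 1 lower, with a median of 0.16. Acot12, which hydrolyses acetyl-CoA to acetate in the cytosol, was the 1 past the looser threshold. It was at 10.26, 10.04 and 10.22 in high fat pups, against 9.47, 9.46 and 8.88 in controls (log2 change 0.90, SE 0.19, adjusted p = 0.184). Acss3, a mitochondrial acyl-CoA synthetase, was at 0.23 (SE 0.16, adjusted p = 0.565).

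Acly, the citrate-splitting enzyme, was at 12.26, 11.18 and 11.002 in high fat pups, against 11.55, 11.75 and 12.87 in controls. High fat replicate 1 lay above 2 of the controls, so the groups overlapped. A log2 change of -0.57 (SE 0.45, limma adjusted p = 0.616) had a 95% interval of -1.64 to 0.49. It was -0.96 without high fat replicate 1, -0.17 without control replicate 3 and -0.050 with RNA integrity as a covariate.

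Acaca, the rate-limiting enzyme of the pathway, was at 11.71, 10.48 and 10.39 in high fat pups, against 10.12, 10.71 and 10.70 in controls. One high fat array stood above all others, and the remaining 2 lay within the controls' range. The log2 change of 0.35 (SE 0.37, limma adjusted p = 0.712, 95% interval -0.54 to 1.24) rested on that array and was -0.073 without it. It was 1.13 with the mean of all probe sets and 0.65 with RNA integrity as a covariate. A second Acaca probe set was dim, at 6.32, 4.71 and 4.996 in high fat pups and 1.29, 4.74 and 4.28 in controls, again highest in high fat replicate 1. That array also carried exocrine pancreas transcripts. The 6 such markers tested had a median change of 1.95, all 6 higher and none past the looser threshold. However, 4 of them passed the brightness limit only through that array, such as Prss1, at 13.08 there against 5.30 and 5.02 in the other high fat arrays. Cela1 was not raised there, at 11.25 against 11.11 and 11.48. The summed level of the 10 measured was 15.69 on the log2 scale in high fat replicate 1, 11.35 and 11.70 in the other high fat arrays and 10.85 to 12.02 in controls, with none at 0. The part of those transcripts in the Acly and Acaca values was not tested beyond leaving the array out.

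Fasn, the synthase itself, was at 9.54, 8.89 and 8.94 in high fat pups, against 10.60, 9.63 and 12.33 in controls. High fat pups spanned 0.65 log2 units and controls 2.698, and the highest high fat array lay 0.091 below the lowest control. High fat minus control was -1.73 on the log2 scale (SE 0.63, limma adjusted p = 0.305), or 3.32-fold lower. A second probe set ran the same way, at 6.87, 6.47 and 6.31 in high fat pups and 8.21, 6.96 and 10.24 in controls, with a log2 change of -1.92. Without control replicate 3 the change was -0.99, and without control replicate 2, the lowest, -2.34. It did not pass the looser threshold without control replicate 1, high fat replicate 2 or high fat replicate 3, nor with no brightness filter, nor with RNA integrity as a covariate, where it was -1.05.

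Control replicate 3 stood apart in several members at once. It lay above the control mean by 1.47 log2 units in Fasn, 0.82 in Acly, 0.82 in Srebf1 and 0.73 in Acss2, and below it by -0.88 in Slc13a5. The 3' minus 5' difference, averaged over the actin and Gapdh control probe sets as a sign of RNA integrity, was 1.92 to 2.46 in high fat pups, against 2.18 and 2.42 in controls 1 and 2 and 3.06 in control replicate 3, the highest of all arrays. The median of 7 sterol synthesis genes was also highest there, 1.15 above the control mean, against -0.062 and -1.10 in the other controls. The part of RNA integrity in these values was not tested beyond the covariate.

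**Figure D2:**
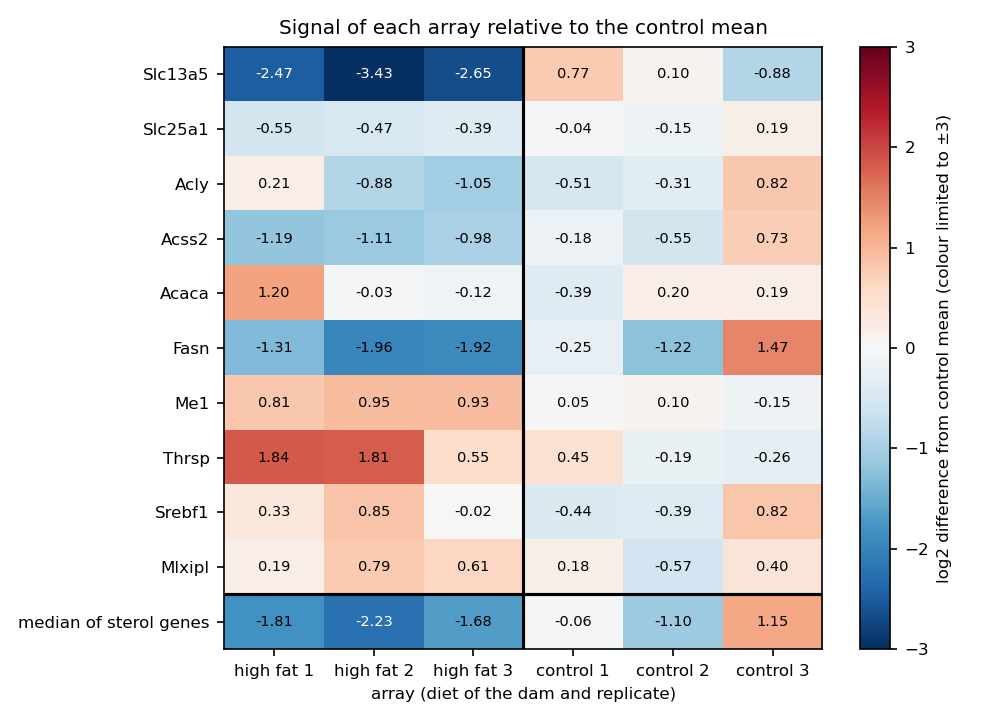
Log2 difference of each array from the mean of the controls, for the 10 genes in rows and, in the bottom row, the median over 7 sterol synthesis genes. High fat arrays are the 3 columns on the left and controls the 3 on the right, red is above and blue below the control mean, and colour is limited to ±3. Fasn and the sterol row are both lowest in the high fat arrays and highest in control replicate 3, while Me1 is higher in the high fat arrays and near 0 in controls.

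Me1, a source of NADPH, had the smallest spread of the members that lay higher. It was at 9.83, 9.97 and 9.95 in high fat pups, against 9.07, 9.12 and 8.87 in controls. The groups were apart by 0.71 log2 units, several times the SD within either diet, 0.073 in high fat pups and 0.13 in controls. The log2 change was 0.90 (SE 0.13, limma adjusted p = 0.131), or 1.86-fold higher. It stayed at 0.82 to 0.95 with any 1 array left out and at 0.81 with RNA integrity as a covariate. A second probe set was at 10.25, 9.99 and 9.89 in high fat pups and 8.90, 8.004 and 9.04 in controls, a log2 change of 1.39.

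Other NADPH-supplying enzymes did not follow Me1. Of 9 listed, 7 were tested, 3 higher and 4 lower. Their median was -0.025 log2 units, with none past the looser threshold. The pentose phosphate enzymes Pgd and Pgls lay lower without overlap, at -0.46 (SE 0.15, limma adjusted p = 0.281) and -0.42 (SE 0.16, adjusted p = 0.322). Relative to the control mean, Me1 minus Fasn was 2.13, 2.91 and 2.85 in high fat pups, against 0.30, 1.33 and -1.62 in controls (mean difference 2.63).

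Genes that act on the chain beside and after Fasn went both ways. Of 11 listed, 10 were tested, and 6 were higher and 4 lower, with a median of 0.13. Scd, the desaturase that acts on the chains Fasn makes, was the 1 past the adjusted threshold. It was at 11.08, 10.94 and 11.66 in high fat pups, against 6.23, 7.02 and 6.39 in controls (log2 change 4.68, SE 0.27, limma adjusted p = 0.00696). The Scd change was 4.395 to 4.91 under the alternatives. Its adjusted p was above 0.05 in 6 of the 16, from 0.0545 to 0.0779, namely with no brightness filter, with the replicate block, with RNA integrity as a covariate, without control replicate 1, without control replicate 3, and with high fat pups 1 and 3 both left out. Acsl3, an acyl-CoA synthetase, lay lower, at 7.60, 8.22 and 7.82 in high fat pups and 8.61, 8.60 and 9.39 in controls (log2 change -0.99, SE 0.27, adjusted p = 0.223).

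Thrsp encodes Spot 14, a small nuclear and cytosolic protein that responds to thyroid hormone and carbohydrate and promotes lipogenesis. It was at 12.66, 12.63 and 11.36 in high fat pups, against 11.27, 10.63 and 10.56 in controls. High fat replicates 1 and 2 lay well above the controls, while high fat replicate 3 was only 0.098 above the highest. This gave a log2 change of 1.399 (SE 0.38, limma adjusted p = 0.227), or 2.64-fold higher, and 1.83 without high fat replicate 3. The other 2 probe sets gave 1.59 and 1.54, also lowest in high fat replicate 3, which in the first of them, at 10.51, lay under control replicate 1, at 10.55. High fat replicate 3 was also the array with low Xist, at 4.45 against 12.46 to 13.31 on the others, and high Eif2s3y, a Y-linked gene, at 11.14 against at most 3.99. No control array had this pattern, so in every gene the high fat mean mixes 2 patterns and the control mean does not. The part of this difference in the values of Thrsp or of any other gene was not tested.

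Mid1ip1, the paralogue of Thrsp whose protein binds acetyl-CoA carboxylase, had the opposite sign. It was at 10.21, 8.82 and 8.65 in high fat pups, against 10.04, 9.72 and 11.46 in controls, with overlap (log2 change -1.18, SE 0.57, limma adjusted p = 0.411). The change was -0.65 without control replicate 3 and -0.54 with RNA integrity as a covariate. Relative to the control mean, Thrsp minus Mid1ip1 was 2.04, 3.40 and 2.30 in high fat pups, against 0.82, 0.50 and -1.32 in controls. Every high fat array lay above every control in this difference (mean 2.58), as was already so in Thrsp alone. Of 10 genes listed for acetyl-CoA carboxylase control, Mid1ip1 among them, 9 were tested, and 4 were higher and 5 lower, with a median of -0.0074. Prkab1, a subunit of AMP-activated protein kinase, which inactivates the carboxylase, was the 1 past the looser threshold (-0.60, SE 0.15, adjusted p = 0.198). Trib3 was at 0.88 (SE 0.40, adjusted p = 0.385), and at 0.50 both without high fat replicate 2 and with the covariate.

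Of 7 genes listed for the thyroid hormone response, 6 were tested, and 3 were higher and 3 lower, with a median of -0.015. Dio1, the deiodinase that activates thyroxine and is itself a thyroid hormone target in liver, was at 9.76, 9.29 and 8.31 in high fat pups, against 8.05, 7.98 and 6.9998 in controls. Like Thrsp, it was lowest in high fat replicate 3 among the high fat arrays, and the groups did not overlap (log2 change 1.44, SE 0.43, limma adjusted p = 0.255). Ncoa1, a coactivator of nuclear receptors, was at 0.080 (SE 0.14, adjusted p = 0.831).

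Srebf1, the regulator of this pathway, was at 10.09, 10.62 and 9.75 in high fat pups, against 9.33, 9.38 and 10.59 in controls. Control replicate 3 lay near the highest high fat array and the other 2 controls below all of them. The log2 change was 0.39 (SE 0.38, limma adjusted p = 0.689, 95% interval -0.53 to 1.30), and 0.80 without control replicate 3. It was 0.15 without high fat replicate 2, 0.17 without control replicate 1 and 0.19 without control replicate 2. With RNA integrity as a covariate it was 0.65. A second probe set, at 7.44, 7.17 and 6.88 in high fat pups and 6.53, 5.62 and 6.99 in controls, gave 0.78, with overlap. Which of the SREBP-1a and SREBP-1c forms each probe set measures was not examined.

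The sister gene Srebf2, whose product SREBP-2 drives sterol synthesis, lay lower without overlap. It was at 8.41, 7.75 and 8.34 in high fat pups, against 9.17, 8.99 and 10.24 in controls (log2 change -1.30, SE 0.36, limma adjusted p = 0.224). The Srebf2 change was -0.85 with RNA integrity as a covariate and -0.98 with the mean of all probe sets. Relative to the control mean, Srebf1 minus Srebf2 was 1.39, 2.57 and 1.11 in high fat pups, against -0.14, 0.091 and 0.048 in controls (mean difference 1.69). This was the one of the 4 pair differences in which the controls lay close together. Of 11 sterol targets of SREBP-2 listed, 7 were measured, and all 7 were lower and past the looser threshold, with a median of -1.81, led by Sqle, squalene epoxidase, at -4.00 (SE 0.59, adjusted p = 0.131), and Idi1, an isomerase of isoprenoid synthesis, at -3.40 (SE 0.63, adjusted p = 0.167).

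Of 13 genes that escort, cleave, retain or assist the SREBPs, Srebf2 among them, 4 were higher and 9 lower, with a median of -0.20. The 2 retention proteins differed in sign. Insig1 was at 11.54, 12.69 and 11.93 in high fat pups, against 12.98, 12.33 and 13.74 in controls, with overlap (log2 change -0.96, SE 0.42, limma adjusted p = 0.369). The Insig1 change was -0.60 without control replicate 3, and -0.33 with high fat pups 1 and 3 both left out. Insig2 was at 12.69, 12.63 and 12.70 in high fat pups, against 12.12, 12.60 and 11.90 in controls (0.47, SE 0.19, adjusted p = 0.348). Nfya, a subunit of the NF-Y factor whose letters are marked in the sequences above, was at 7.22, 7.03 and 7.16 in high fat pups, against 7.75, 7.94 and 7.43 in controls (-0.57, SE 0.17, adjusted p = 0.247).

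Nr1h3, which encodes the sterol receptor LXR alpha, an activator of Srebf1 transcription, was at 10.97, 11.17 and 11.26 in high fat pups, against 11.64, 11.77 and 12.26 in controls. The groups did not overlap (log2 change -0.76, SE 0.19, limma adjusted p = 0.211). Of the 8 genes of LXR and its targets, 5 were higher and 3 lower, with a median of 0.11, and Nr1h3 alone was past the looser threshold. Mylip, an LXR target that degrades lipoprotein receptors, was at 0.41 (SE 0.15, adjusted p = 0.314).

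Mlxipl, the carbohydrate-responsive regulator, was at 9.09, 9.69 and 9.52 in high fat pups, against 9.08, 8.33 and 9.30 in controls. The groups overlapped, since high fat replicate 1 lay under control replicate 3. The change was 0.53 log2 units (SE 0.28, limma adjusted p = 0.459, 95% interval -0.14 to 1.21), and ranged from 0.25 to 0.73 with 1 array left out. Of 10 genes listed as its partner and targets, 7 were tested, and 5 were higher and 2 lower, with a median of 0.22. Txnip, a glucose-induced ChREBP target and the 1 past the looser threshold, was at 12.46, 11.78 and 12.47 in high fat pups, against 11.54, 11.52 and 11.56 in controls (0.70, SE 0.21, adjusted p = 0.251), and its change was 0.24 with high fat pups 1 and 3 both left out. Pklr, the liver pyruvate kinase, was at 9.51, 9.05 and 9.39 in high fat pups, against 8.63, 8.88 and 8.94 in controls (0.50, SE 0.17, adjusted p = 0.285).

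**Figure D3:**
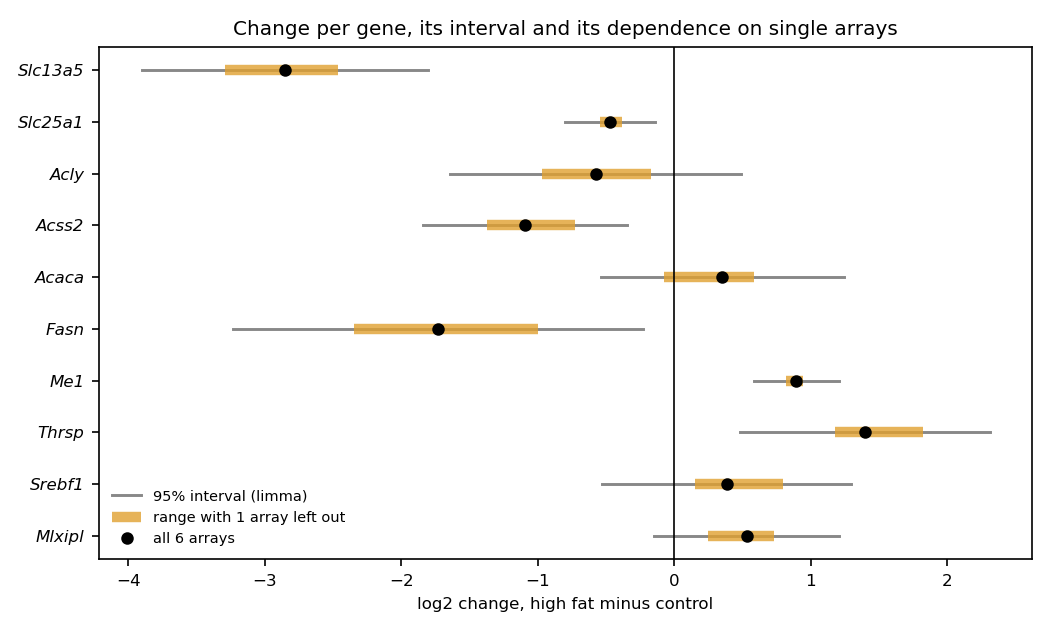
Log2 change, high fat minus control, of each of the 10 genes over all 6 arrays (black points), with limma's 95% interval (grey lines) and the range of the change with any 1 array left out (orange bars). The bar of Acaca crosses 0, and the bars of all the other genes, those that overlap between the diets included, keep their sign. For the 6 genes without overlap, leaving 1 array out could not change the sign.

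**Figure D4:**
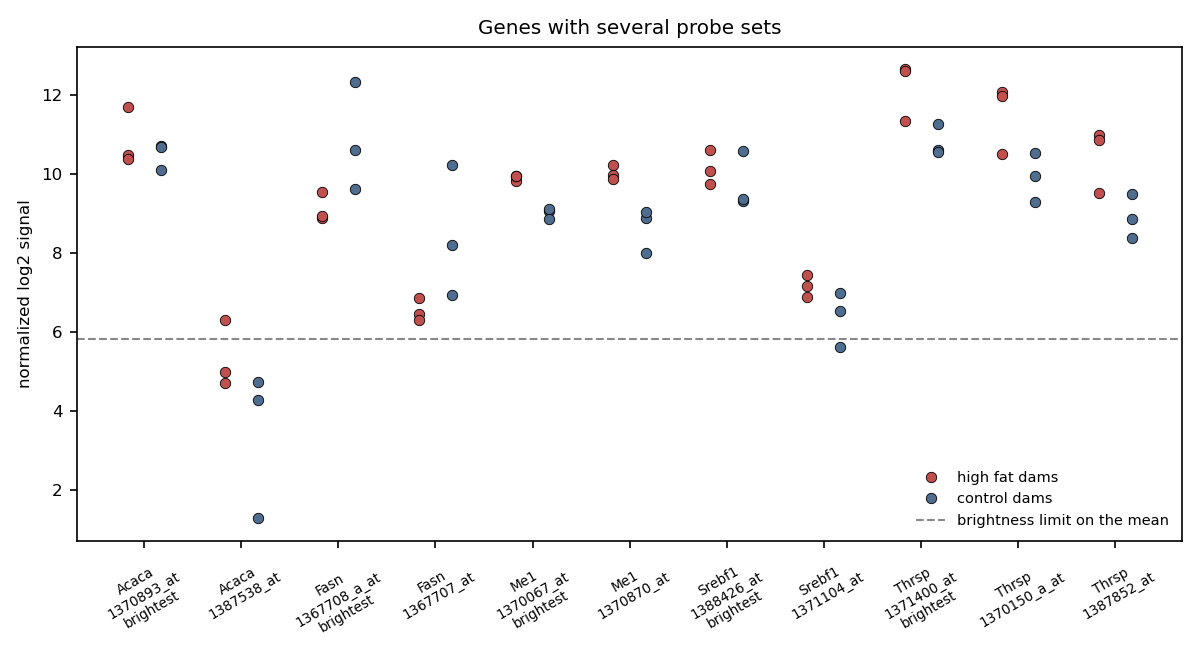
Normalized log2 signal (vertical axis) of every probe set of the 5 genes with several, high fat pups in red on the left and controls in blue on the right of each pair, with the dashed line at the brightness limit of 5.83 on a gene's mean. All probe sets of a gene share the sign of their change, and the second probe set of Acaca lies mostly under the line.

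**Figure D5:**
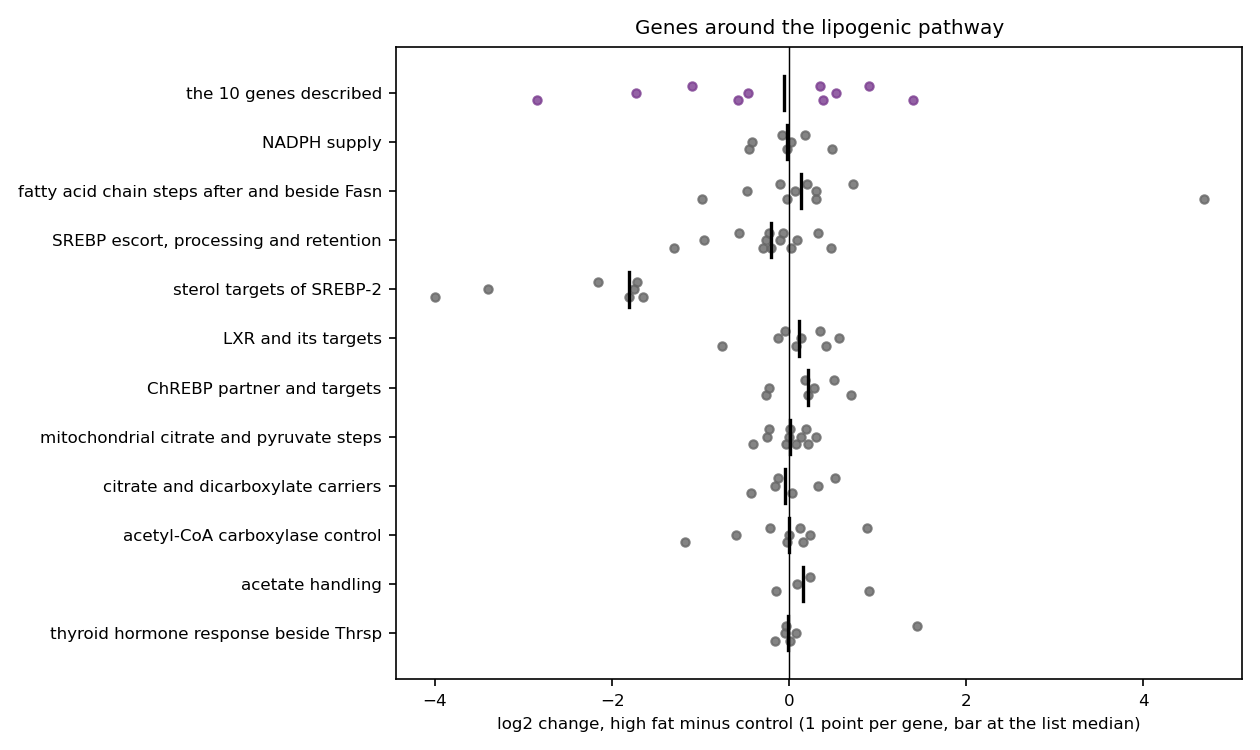
Log2 change, high fat minus control, of every tested gene (1 point each) of the 11 lists of related genes, with the 10 genes described here in the top row and a bar at each median. The sterol targets of SREBP-2 lie apart at a median of -1.81, and the other list medians lie between -0.20 and 0.22.

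The genes whose pattern over the 6 arrays was most like 4 of the members were taken by Pearson's r across all tested genes, as a description with no test, since these 6 arrays share the diets and the normalization. For Fasn they were Hexim1, Sbk1, Slain2, Bola2 and Ppp1r15b, at r of 0.989 to 0.991, and 68 genes were above 0.95. For Slc13a5 they were Ypel3, Copb2, Traf5, Mcm3ap and Ero1a, at 0.986 to 0.996, with 48 above 0.95. For Me1 they were Rcn3, Nfic, Tcp11l2, Dcaf17 and Prr13, at 0.986 to 0.994, with 69 above 0.95. For Thrsp they were Egfl8, Clpx, Ntan1, Cyp26a1 and Uchl3, at 0.987 to 0.995, with 27 above 0.95. No other member was among these 20 named genes, while Acss2, at 0.96 with Fasn, was among the 68.

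Markers of hepatocytes were bright, with Alb at 14.46 to 14.77 over all arrays and a summed log2 level of 17.41 to 17.52 over 8 genes in high fat pups and 17.54 to 17.61 in controls. These 8 had a median change of -0.11, with 6 lower, 1 of them past the looser threshold. Fat tissue also makes most of the 10 genes. Of 9 adipocyte markers measured, Adipoq was at 4.66 to 6.27, Lep at 1.61 to 4.35 and Plin1 at 1.91 to 5.57 over all arrays. The other 6 were brighter, among them Car3 at 11.89 to 13.44, Cidec at 11.22 to 11.80 and Cfd at 9.14 to 9.61. These 6 were tested, 2 higher and 4 lower, with a median change of -0.032. The summed level over all 9 was 13.46 to 13.97 in high fat pups and 13.11 to 13.71 in controls. Endothelial markers were lower in all 6 measured, with 4 past the looser threshold, a median of -0.70 and a summed level of 13.31 to 13.73 in high fat pups against 14.17 to 14.37 in controls. Kupffer cell and macrophage markers had a median of -0.053 over 6 genes, with a summed level of 13.08 to 13.81 in high fat pups and 13.33 to 13.71 in controls. Erythroid markers had a median of -0.24 over 4 genes, at 14.51 to 14.87 in high fat pups and 14.59 to 15.15 in controls. No measured marker of these types was at 0 on any array, and their part in the members' values was not tested.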

How the data were processed

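Liver RNA of 6 rat pups was labelled with a 3' IVT kit and hybridised to 1 Affymetrix array each, per the labels' protocols. The authors' deposited values proved to be log2 signals: with base 2 undone, a 2% trimmed mean came to 500.2 on each array, a scaling of the array as a whole. The lowest values, 91 to 144 per array, had been set to 0. Summarization software and version are not given in the sources used here.

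The 57 control probe sets were dropped, and the other 31042 were quantile-normalized, since quartiles differed between arrays by up to 0.22. The annotation given pairs 20826 of them with 1 gene and 436 with several, and leaves 9780 unnamed here. A current rat gene table matched 20758 of the 20826 and updated their symbols. Genes took their brightest probe set. Those with a mean under 5.83, the 40% point of all probe sets, were left out, leaving 10372 of 14217 genes. All 10 members passed.

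Diets were compared in R 4.3.3 with a 2-sided test from limma 3.58.1 (lmFit, eBayes), high fat minus control, with Benjamini-Hochberg adjustment across every gene tested. The procedure was tested on simulated data. Figures were drawn with matplotlib 3.10.9. The members, the lists of related genes and the tests were chosen with earlier results of these data known. From each list the 2 genes with the smallest p were named, plus Scd, Sqle, Mid1ip1, Insig1 and Insig2, on which results turn, and marker genes. The 4 gene pairs were chosen after their values were seen and were not tested. RNA integrity was the mean 3' minus 5' difference of actin and Gapdh. The hexokinase control, at a mean of 2.85, was left out as dim after its values were seen. Alternatives covered normalization, the brightness filter, probe set choice, variance model, array weights, RNA integrity, the replicate number and each array left out, with the normalization, probe sets and filter of all 6 arrays kept in the last.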

Additional observations from a re-analysis of the deposited data

How the results depend on the processing

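The 10 genes kept the sign of their change in 158 of 160 values under the alternatives. Both exceptions were Acaca, which was at -0.073 when high fat replicate 1 was left out, at 0.59 when replicate 3 of that diet was, and at -0.030 with high fat replicates 1 and 3 both left out, an alternative chosen after seeing the data. The other named genes kept theirs in 399 of 400, and the exception was Slc13a4, at -0.084 with those 2 arrays out. Both totals include alternatives that cannot alter a gene's change, only its p-value, so the signs there were fixed in advance. These were no brightness filter, the lowest 20% left out, the intensity trend with robust prior, and the replicate block. Leaving arrays out also could not reverse a gene whose groups do not overlap, 6 of the members among them. The mean of all probe sets left genes with only 1 probe set unchanged. Most of the agreement in sign among the members was therefore fixed in advance. No member passed limma's adjusted threshold in any alternative, with a lowest adjusted p of 0.0668, under an intensity trend and robust prior. Members past the looser threshold numbered 4 to 7 with 1 array left out, and 3 (Me1, Thrsp and Slc13a5) with those 2 arrays out. Over all genes, limma called 4 (Faxdc2, Psat1, Retsat and Scd, named after their values were seen). With no brightness filter all 4 calls were lost and 1 other gene, Sox21, was called, with the lowest 20% left out Scd was the 1 called, and there were 0 calls with RNA integrity as a covariate (1100 genes at an unadjusted p under 0.05). With the replicate block there were also 0 calls (1102 genes unadjusted), and 5 members stayed past the looser threshold, the number found with no block. Same-numbered arrays did not deviate together (correlations of their deviations -0.13, -0.13 and -0.14, and no array correlated best with its own number), so the numbers were not taken to pair pups. With 1 array left out calls ranged from 0 to 4, and were 0 without control replicate 1 (1308 unadjusted) and without control replicate 3 (1145 unadjusted). The genes called changed too. They were Aldoc, Faxdc2, Hspa1a and Scd without high fat replicate 1, and Psat1, Scd and Tm7sf2 without high fat replicate 3. The median change of all genes stayed between -0.045 and -0.0082 in every alternative. With the mean of all probe sets, the size of the change differed in some other named genes. Slc25a10 was then at -0.27, Pklr at 0.34 and Nfya at -0.47, nearer 0 than with the brightest probe set. Mdh1 was at -0.81 and Ncoa1 at 0.17, further from it. Values near the brightness limit, such as Slc13a5 in high fat pups, are limited by signal over background, which no detection call here measures.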
